A study of Gallus gallus with 9 samples.

Results

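Chicken sperm DNA methylation was described on contigs, the stretches of the galGal5 assembly that are not built into a placed chromosome. A listed region or site was counted as lying on a contig when its sequence name carried an NT_ number or began with LGE, with the sex chromosomes left out. The rule used the sequence name alone and took 807 of the 6428 listed regions and 117 of the 1286 listed sites. The regions lay on 395 contigs and the sites on 55, and 44 contigs carried both. By their names, 578 regions and 80 sites were on unplaced contigs, for which no chromosome is known, and 227 regions and 37 sites were on random contigs, which are assigned to a chromosome but have no position along it. The other 2 regions were on linkage group LGE64. The sets held beside them were the 5454 regions and 1127 sites of the numbered (placed) autosomes.

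The study asked whether heat conditioning of the embryo alters methylation in the sperm of the grown male. The F0EHC group was 4 Cobb broiler males from eggs held at 39.5 °C and 65% humidity for 12 h of each day between embryonic days 7 and 16, and the F0C group was 5 Cobb broiler males from eggs kept at 37.8 °C and 56% humidity. Each library was the sperm of 1 bird, read by reduced representation bisulfite sequencing (RRBS). Humidity was raised together with temperature, so the parts of the 2 in any difference cannot be told apart, and no offspring were among the samples.

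In RRBS a restriction digest enriches fragments rich in CpG, and bisulfite converts unmethylated but not methylated cytosine, so that the share of reads still showing cytosine gives the methylation level of that cytosine. In vertebrate sperm most CpGs outside CpG islands are methylated, and many promoters and CpG islands are not. A contig stays unplaced when repeats or GC-rich sequence at its ends keep it from being joined to its neighbours. Near-identical copies can also be collapsed into a single contig in the assembly, and reads from all copies then map to the same positions. The chicken genome holds many small, gene-dense and GC-rich chromosomes whose sequence is a common source of unplaced contigs.

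Both tables hold only features that the authors listed for the contrast of F0EHC with F0C in these same birds. The paper reports far fewer differentially methylated regions than are listed here, so a listed region need not be one that it called. Levels and directions below are therefore those of listed features and not of contig DNA as a whole, and no p-value from a contrast of the groups is independent evidence of a difference. The site table gives methylated and unmethylated reads at single cytosines with at least 8 reads in every bird, and the region table gives a mean percent per bird with unknown depth. Over the contig sites the libraries held between 7727 and 19444 reads, with the fewest in F0C replicate 1 and the most in F0C replicate 3. These tables hold no expression, so the labelled sperm could not be checked against marker genes.

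The listed contig regions were more methylated than the listed regions of placed autosomes in every bird. The mean over contig regions was 39.9, 41.7, 39.3 and 38.6% in the F0EHC birds and 38.6, 36.6, 40.7, 39.3 and 38.7% in the F0C birds. Placed autosomes stood at 34.7, 36.2, 34.0 and 32.8% in F0EHC and at 34.1, 32.0, 35.1, 34.1 and 33.9% in F0C. Within a bird, contigs minus placed autosomes was 5.16 ± 0.441 percentage points (SD, n = 9 birds, range 4.52 to 5.74), higher in 9 of 9 birds (two-sided exact sign-flip test over birds, p = 0.00391, the smallest that 9 birds allow). The groups overlapped in the contig mean and the difference was present in both. The test treats birds as the replicates, while the same regions were read in all of them, so it says nothing about another choice of regions.

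The higher level was found on the unplaced contigs. Their regions averaged between 38.5 and 43.6% in single birds, those of random contigs between 31.5 and 36.8%. Unplaced minus random was 6.91 ± 0.622 points (SD, n = 9 birds), higher in 9 of 9 birds (exact sign-flip test, p = 0.00391, a comparison chosen after the levels were seen). Set alone against placed autosomes, the random contigs and the linkage group differed by 0.413 points on average (exact sign-flip test, p = 0.129).

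**Figure D1:**
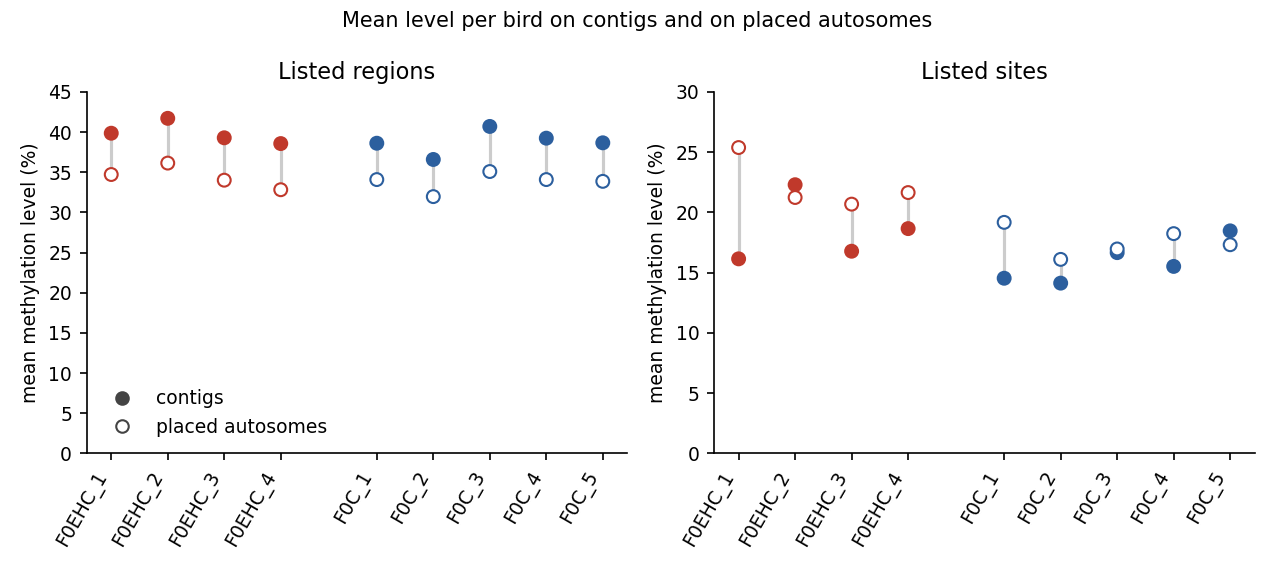
Mean methylation level (%) per bird over the listed regions (left) and the listed sites (right); filled points are contigs, open points placed autosomes, red F0EHC and blue F0C birds. For regions the filled point lies above the open one in all 9 birds, by 4.52 to 5.74 points, and for sites it lies below in 7 of 9 birds.

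The shape of the distribution differed as well. Regions with a mean level under 5%, the unmethylated state typical of CpG islands, made up 8.30% of the contig regions and 19.6% of those on placed autosomes, and regions over 60% made up 14.5% of the contig regions against 8.38%. Between 40 and 60% the shares were close, at 46.0% on contigs and 45.4% on placed autosomes. Counted bird by bird, the share of regions under 5% was lower on contigs in 9 of 9 birds, with a difference of -8.37 ± 1.32 points (SD, n = 9), and the share over 60% was higher in 9 of 9, by 6.30 ± 1.31 points (exact sign-flip test, p = 0.00391 for each). Both comparisons were chosen after the levels were seen. On the random contigs and the linkage group alone the share over 60% differed by -0.518 points from placed autosomes. Their share under 5% was still lower, at -5.08 points (exact sign-flip test, p = 0.00781).

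**Figure D2:**
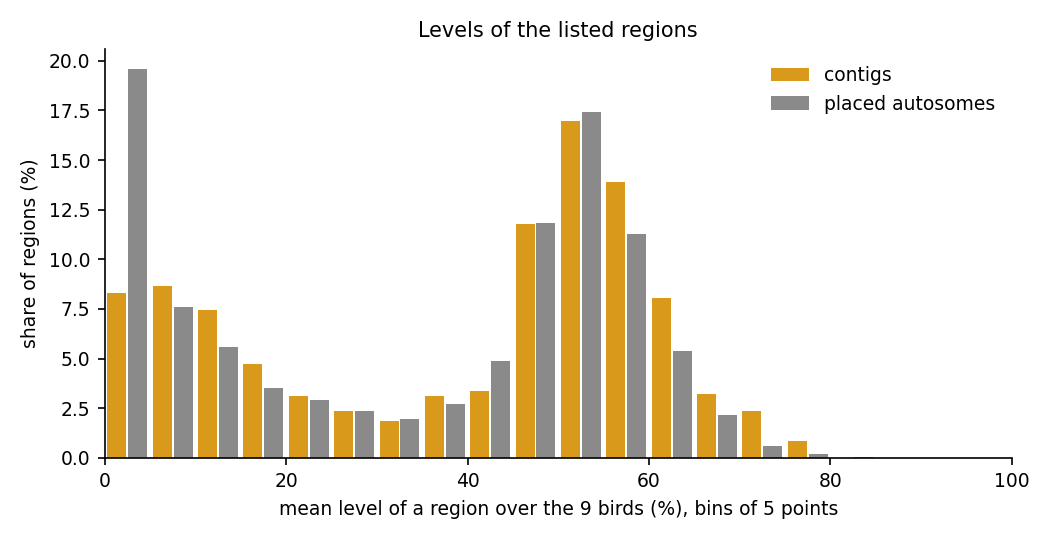
Share of listed regions (%) by mean level over the 9 birds, in bins of 5 points, for contigs (gold) and placed autosomes (grey). The lowest bin holds 8.30% of contig regions and 19.6% of those on placed autosomes, and above 60% lie 14.5% and 8.38%.

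Contig regions had a median length of 65 bp, against 74 bp on placed autosomes, and 176 of them (21.8%) carried no gene ID, while all 5454 regions of placed autosomes carried one. Where a gene ID was given it was an Ensembl ID, and the contig regions named 349 of them. Over all regions the median SD within groups was 5.22 points on contigs and 4.78 points on placed autosomes. The direction of this difference varied with level. Contigs had the larger median at levels of 5 to 20% (5.10 against 4.28 points) and 20 to 40% (8.85 against 7.18 points). They had a slightly smaller one at 40 to 60% (5.42 against 5.52 points), over 60% (4.77 against 4.91 points) and under 5%. Whether level accounts for the difference was not tested.

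Of the 807 contig regions, 458 had a higher mean in F0EHC and 349 a lower one. That is 56.8% higher, beside 56% over all 6428 listed regions. Differences were small, with a median size of 5.06 points on contigs and 4.50 points on placed autosomes. A difference of at least 10 points was reached by 46 regions higher in F0EHC and 23 lower, together 8.55% of contig regions and 6.55% of regions on placed autosomes for the same measure. By level, the percent of contig regions higher in F0EHC was 67.2 under 5%, 48.8 at 5 to 20%, 66.7 at 20 to 40%, 60.4 at 40 to 60% and 43.6 over 60%. Regions of placed autosomes in the same classes gave 67.0, 48.2, 49.7, 55.6 and 51.6.

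None of the contig regions passed limma's moderated test with Benjamini-Hochberg adjustment over all 6428 regions (0 regions, smallest adjusted p = 0.256), and the share over the whole table was 0% too. At an unadjusted p under 0.05, limma took 140 contig regions, 94 higher and 46 lower in F0EHC, which is 17.3% beside 19.2% of all listed regions. On a log ratio scale it took 153, and 0 after adjustment. Regions in which the groups did not overlap numbered 25 higher and 18 lower, 5.33% beside 7.79% over the table. The 25 higher ones were 3.10% of contig regions, beside 4.81% over the table.

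The 8 contig regions with the largest differences upward held both partly methylated regions and one that was nearly unmethylated in most birds. The largest was at positions 265 to 296 of the unplaced contig NT_479368, without a gene ID, which had 33.7, 54.6, 11.8 and 57.6% in F0EHC birds, against 7.80, 14.4, 11.8, 11.2 and 24.9% in F0C birds. F0EHC replicates 1, 2 and 4 lay above every F0C bird and replicate 3 lay among them, with a difference of 25.4 ± 8.24 points (SE; limma, adjusted p = 0.256). A 2nd region, at positions 57021 to 57223 of NT_459802, a chromosome 4 random contig, stood at 40.4, 45.2, 37.6 and 47.7% in F0EHC birds and at 27.0, 20.8, 26.1, 39.6 and 25.3% in F0C birds. Its gene ID was ENSGALG00000035156.1, and F0C replicate 4 was the only control among the F0EHC values (difference 15.0 ± 4.53 points, SE; limma, adjusted p = 0.256).

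Unplaced contig NT_471607 gave 2 of the 8, which differed in kind. At positions 1889 to 2131 the F0EHC birds had 4.78, 56.4, 25.4 and 2.96%, against 3.83, 3.28, 12.0, 1.88 and 2.21% in F0C birds. Only F0EHC replicates 2 and 3 stood above the F0C range, and without F0EHC replicate 2 the difference was 6.41 points instead of 17.8. At positions 3016 to 3242 of the same contig all birds were partly methylated, at 30.2 to 54.2% in F0EHC and 9.78 to 44.3% in F0C. The remaining upward regions, on NT_464822, NT_466500, NT_464648 and NT_456103, had differences of 16.6, 15.4, 15.1 and 14.5 points, of which that on NT_464648 was 9.35 without F0EHC replicate 4 and 23.3 without F0EHC replicate 2. Of all 8 the one on NT_456103 alone had groups that did not overlap.

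The 8 largest downward differences were led by positions 13185 to 13232 of the unplaced contig NT_464325. It was nearly unmethylated in every F0EHC bird, at 2.20, 1.26, 0.799 and 0%, against 38.9, 54.7, 5.67, 1.498 and 58.5% in F0C birds. The F0C birds fell into 3 methylated and 2 nearly unmethylated ones, so the groups overlapped (difference -30.8 ± 10.7 points, SE; limma, adjusted p = 0.256). Groups did not overlap at 2 of the 8. Positions 884 to 991 of NT_476672 had 26.2, 24.7, 11.8 and 17.9% in F0EHC birds and 28.1, 46.1, 32.4, 41.2 and 52.6% in F0C birds. Positions 3590 to 3628 of NT_468773 had 24.6, 14.6, 22.7 and 24.6% in F0EHC birds and 41.4, 36.8, 32.0, 30.0 and 31.2% in F0C birds. Neither region had a gene ID, and their adjusted p (limma) was 0.256 in both. The 4 further downward regions outside NT_456103 were on NT_471921, NT_464165, NT_468097 and NT_462466, with differences of -21.7, -15.4, -13.6 and -12.9 points, of which that on NT_462466 was -8.15 without F0EHC replicate 4.

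NT_456103, a chromosome 1 random contig, held one region of each direction under the same gene ID, ENSGALG00000045102.1. At positions 951 to 1220 the level was 42.1, 39.4, 59.7 and 42.0% in F0EHC birds, against 30.6, 38.5, 25.8, 37.2 and 24.8% in F0C birds. Less than 2 kb further on, at positions 2932 to 2980, it was 17.7, 27.3, 62.4 and 21.3% in F0EHC birds and 24.99, 61.2, 68.5, 58.7 and 66.3% in F0C birds. In the 2nd region F0EHC replicate 3 stood with the methylated controls and F0C replicate 1 with the other F0EHC birds. The differences were 14.5 and -23.7 points, and neither passed limma's test after adjustment (adjusted p = 0.256 each).

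The random contigs of chromosomes 1 and 4 went opposite ways, a pair singled out after the counts per chromosome were seen. On chromosome 1, 33 contigs held 37 regions at a median level of 10.01%, of which 8 were higher and 29 lower in F0EHC. On placed chromosome 1, 190 of 353 regions were higher (53.8%), at a median level of 17.6%. The medians per bird over the 37 regions were 6.50, 7.88, 20.04 and 10.6% in F0EHC and 13.8, 12.3, 23.2, 16.4 and 9.17% in F0C, so the groups overlapped. Replicate 3 was the highest bird in each group. Of the 23 regions under 20%, 20 were lower in F0EHC. Among these 23, 12 were highest in F0C replicate 3, 4 in F0EHC replicate 3 and 4 in F0C replicate 4. A further 2 were highest in F0C replicate 1 and 1 in F0C replicate 5. An unadjusted p under 0.05 (limma) was found for 5 of the 37 (13.5%, beside 19.2% of all listed regions).

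On chromosome 4 the 62 regions came from only 2 contigs, NT_459802 and NT_459801, and 45 of them were higher in F0EHC. The mean over the 62 was 28.7, 33.4, 31.0 and 26.9% in F0EHC birds and 26.0, 24.5, 29.6, 26.5 and 29.3% in F0C birds, with overlap between the groups, and 7 had an unadjusted p under 0.05 (limma; 11.3%, beside 19.2% of all listed regions). On placed chromosome 4, 138 of 237 regions were higher (58.2%). Regions of 1 contig share their neighbourhood, so these counts are not counts of independent events, and the contrast between the chromosomes was not tested.

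Contigs often carried several listed regions. A single region was listed on 268 contigs, and the other 127 held 539 regions (66.8%), of which 373 were on the 53 contigs with at least 4. Of the 127 contigs with several regions, all regions were higher in F0EHC on 31, all were lower on 14, and both directions occurred on 82. Of the 53 with at least 4, all were higher on 2, all were lower on 2, and 49 had both directions. Among all contig regions 56.8% were higher, and what counts of contigs that share alone would give was not tested. Level also varied within a contig, and 19 of the 53 reached from a region under 5% to one over 50%. The median gap between neighbouring regions of a contig was 1287 bp. The 2 regions of LGE64 were at 58.1 and 73.5%, one higher and one lower in F0EHC.

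The 2 contigs with every region higher were NT_464304 and NT_464176, each with 4. Averaged over its regions, NT_464304 stood at 37.9, 26.4, 33.7 and 26.7% in F0EHC birds and at 18.4, 20.9, 25.2, 21.5 and 24.95% in F0C birds, with no overlap. The contig was picked because all its listed regions were higher, so separation was favoured by the choice and is no evidence of a difference. NT_464176 averaged 27.3, 30.7, 31.0 and 32.8% in F0EHC birds, against 22.1, 29.4, 20.7, 27.8 and 21.4% in F0C birds, where F0C replicates 2 and 4 reached into the F0EHC range. The 2 with every region lower, NT_464303 and NT_458177, overlapped between groups, at 52.6 to 66.3% and 26.4 to 37.0% in F0EHC, against 55.6 to 70.2% and 28.9 to 40.9% in F0C. Another contig, NT_471827, was named for its spread after the values were seen: over its 4 regions F0EHC replicate 4 had 22.1% and F0C replicate 3 had 33.7%, while the other 7 birds lay between 0.608 and 3.89%.

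At least 10 regions were listed on 9 contigs, which together held 154. NT_459802 led with 32 regions over 107527 bp, 26 of them higher in F0EHC, and NT_459801 followed with 30, 19 of them higher. NT_464186 had 18 regions, 14 higher, at a median level of 8.18%, and its means were 19.6, 19.8, 17.7 and 22.0% in F0EHC birds and 14.3, 13.7, 17.7, 15.9 and 17.7% in F0C birds. NT_462717, with 16, carried a single gene ID in all of them, and 9 were higher. NT_474236 had 10 regions without a gene ID within 3073 bp, all between 54.0 and 66.4%.

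**Figure D3:**
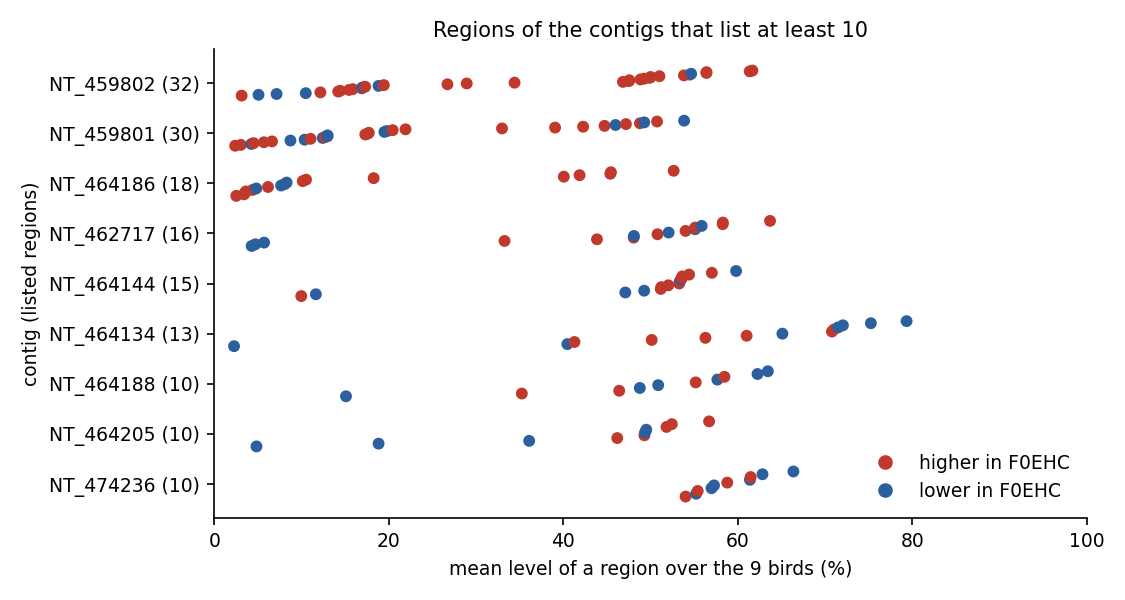
Mean level over the 9 birds (%) of each listed region on the 9 contigs with at least 10, with the number of regions in brackets; red regions were higher and blue ones lower in F0EHC, and points of a contig are spread vertically by level only. Both colours occur on every contig, and 6 of the 9 reach from under 5% to over 50%.

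Single sites were methylated to a lesser degree than regions. Over the 117 contig sites the median level was 9.11%, against 15.3% over the 1127 sites of placed autosomes. The mean per bird was 16.2, 22.3, 16.8 and 18.7% in F0EHC and 14.5, 14.1, 16.7, 15.5 and 18.5% in F0C, and these ranges overlapped. Contigs minus placed autosomes was -2.62 ± 3.22 points (SD, n = 9 birds), lower in 7 of 9 birds (exact sign-flip test, p = 0.0312). The call rested on one contig: without NT_464176, which held 24 of the sites, the difference was -0.137 points (exact sign-flip test, p = 0.906). It was also lost when any of 6 of the 9 birds was left out, with p between 0.0547 and 0.0625, the 6 being F0EHC replicates 1, 3 and 4 and F0C replicates 1, 2 and 4.

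Contig sites were read at a median of 46 reads per bird, against 44 at sites of placed autosomes. In 28 contig sites the shallowest bird had fewer than 20 reads. Medians per bird were 66, 58, 39 and 45 reads in F0EHC and 31, 52, 44, 47 and 47 in F0C. The log2 ratio of contig to placed depth averaged 0.08 ± 0.24 (SD, n = 9 birds), higher in 6 of 9 birds (exact sign-flip test, p = 0.355). Sites on unplaced contigs alone gave -0.046 (p = 0.586) and those on random contigs 0.33 (p = 0.00781 by the same exact test). A few contig sites were read far more deeply. A median over birds of more than 200 reads was reached by 9 contig sites (7.69%) and by 25 sites on placed autosomes (2.22%). The largest medians were 2601 and 448 reads. The mean depth, unlike the median, was higher on contigs in 9 of 9 birds (log2 ratio 1.19, exact sign-flip test, p = 0.00391).

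The 9 deep contig sites were all lower in F0EHC, 8 of them from low levels in both groups, but they made up only 4 loci. The 25 deep sites of placed autosomes, also in 4 loci, were all higher. Positions 14741 and 14828 of the chromosome 1 random contig NT_456110 had medians of 2601 and 2391 reads. Position 14741 was at 0.884, 0.848, 0.98 and 0.854% in F0EHC birds and at 2.99, 2.64, 8.14, 0.532 and 0.875% in F0C birds, so the F0EHC values spanned far less than 1 point and lay inside the F0C range (exact permutation p = 0.151). Positions 2976 and 2991 of the unplaced contig NT_465426, at about 349 reads, had means of 1.02 and 1.07% in F0EHC, against 4.42 and 4.67% in F0C, where replicates 3 and 4 carried most of the methylation. The exception in level was position 2605 of NT_456115, with 259 reads, which was at 96.1, 63.8, 97.2 and 96.1% in F0EHC birds and at 95.4 to 100% in F0C birds: F0EHC replicate 2 alone was low. How many genomic copies feed reads to these positions was not tested.

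**Figure D4:**
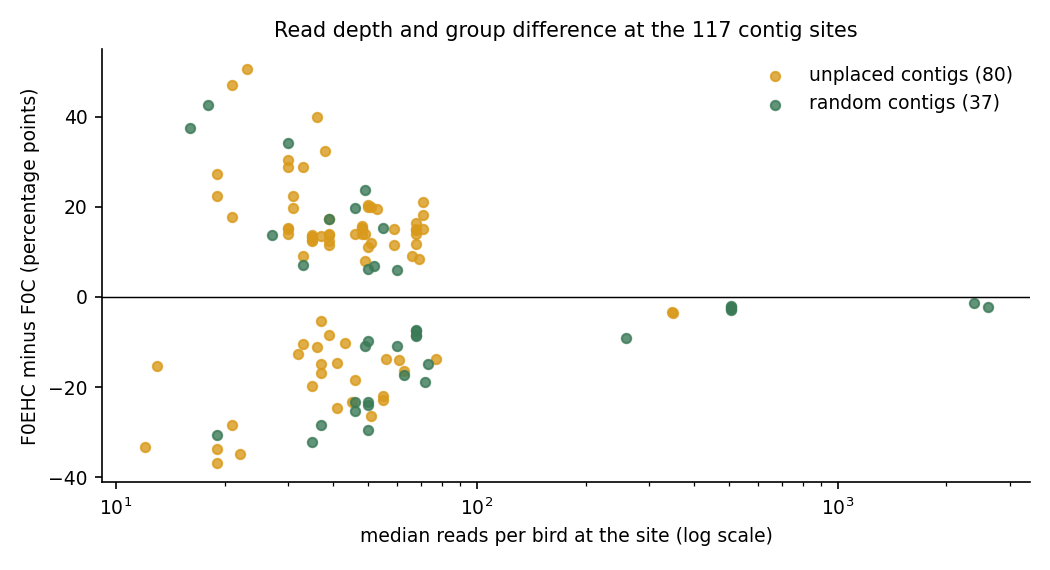
Difference F0EHC minus F0C (percentage points) against the median reads per bird (log axis) at the 117 contig sites, with sites on unplaced contigs in gold and on random contigs in green. The 9 sites above 200 reads all lie below 0, and 8 of them differ by between -3.60 and -1.41 points.

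Of the 117 contig sites, 64 were higher and 53 lower in F0EHC (54.7% higher, beside 59.7% over all 1286 listed sites). Sites on unplaced contigs were 52 higher and 28 lower, those on random contigs 12 higher and 25 lower. Neighbouring cytosines of a few loci made up much of both counts. NT_464176 is an unplaced contig, and 7 of the lower random sites were 1 locus of NT_456103. The counts by kind are therefore not counts of independent events. All 24 sites of NT_464176 were higher, and without them the contig sites were 40 higher and 53 lower (43.0% higher). Higher contig sites had a median of 17.0% in F0EHC, against 1.75% in F0C, and lower ones 3.38% in F0EHC, against 21.0% in F0C. Without NT_464176 the higher sites had medians of 25.8% in F0EHC and 4.29% in F0C, beside 26.2 and 5.42% on placed autosomes. Listed contig sites were thus mostly at a low level in one group. All 58 contig sites that lay inside a listed region had the sign of that region, beside 652 of 657 over all listed sites. Sites and regions were read in the same libraries, so this agreement is no separate evidence.

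Every listed site had passed a false discovery rate of 0.05 in the authors' own edgeR analysis. The fits here used the listed sites alone, so they are not the same test as the authors'. No contig site passed edgeR's quasi-likelihood test with adjustment over all 1286 sites (0 sites, smallest adjusted p = 0.108), as for the whole table (0%). At an unadjusted p under 0.05 it took 53 contig sites, 38 higher and 15 lower, 45.3% beside 45% over the table. Other tools on the same counts took 55 contig sites (edgeR's likelihood ratio test; 47.0%, beside 48.6% of all listed sites) and 67 (DESeq2's Wald test; 57.3%, beside 63.5%) after adjustment. Groups did not overlap at 15 higher and 11 lower contig sites, 22.2% beside 20.6% over the table. Single birds carried many of the differences: at 27 contig sites (23.1%) leaving out 1 bird removed more than 50% of the difference, against 16.2% of the sites on placed autosomes. The bird concerned was F0EHC replicate 1 at 7 sites, F0EHC replicate 2 at 6 and F0C replicate 5 at 5. All 5 sites of F0C replicate 5 were neighbouring cytosines of NT_462717, and most of those of F0EHC replicate 2 were neighbours on NT_464176. These counts and shares are therefore not counts of independent events.

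Neighbouring cytosines share reads, so sites within 500 bp were joined into 64 contig loci, 31 higher, 32 lower and 1 mixed. A single cytosine made up 48 of them, 10 had 2 and 6 had 3 or more. By two-sided exact permutation of 4 against 5 birds, 38 contig loci had p under 0.05 (59.4%, beside 48% of all 690 loci). After adjustment over the 690 loci 0 passed (0% over the table), with a smallest adjusted p of 0.0522 at the smallest exact p that 4 against 5 birds allow, 0.00794. Groups did not overlap at 12 higher and 10 lower contig loci, 34.4% beside 26.5% over the table.

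**Figure D5:**
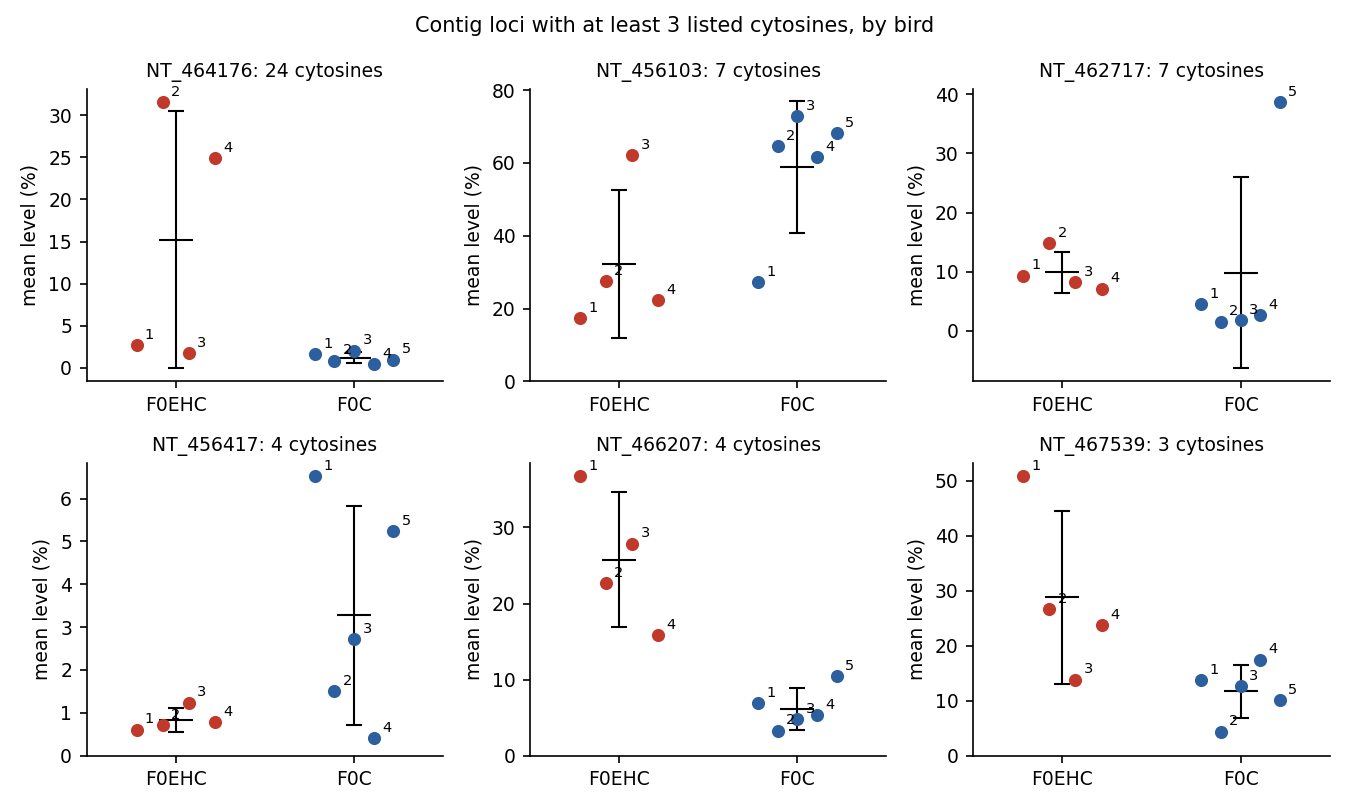
Mean methylation level (%) per bird at the 6 contig loci with at least 3 listed cytosines, F0EHC in red and F0C in blue, with replicate numbers, group means and SD bars (an SD bar may cross 0). The groups do not overlap on NT_466207 only, F0EHC replicates 2 and 4 stand above replicates 1 and 3 on NT_464176, and F0C replicate 1 on NT_456103 and F0C replicate 5 on NT_462717 stand apart from the other F0C birds.

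The longest contig locus was an exon stretch of the unplaced contig NT_464176, positions 28451 to 29074, with 24 listed cytosines of 20 CpGs and a median of 45 reads. It was at 2.70, 31.6, 1.69 and 24.96% in F0EHC birds, against 1.62, 0.817, 2.00, 0.433 and 0.949% in F0C birds. F0EHC replicates 2 and 4 carried the difference, and replicates 1 and 3 were at the level of the controls (exact permutation p = 0.0159, adjusted p = 0.0579). Without F0EHC replicate 2 the difference was 8.62 points instead of 14.1, and p was 0.0571 without any one of F0C replicates 1, 2, 4 and 5 (exact permutation). The region listed over it, positions 28410 to 29080, showed the same 2 birds at 28.8 and 21.3% and the other 7 between 2.07 and 4.09%. At the other listed regions of the contig the order of the F0EHC birds differed: at positions 4211 to 4269 replicate 2 had 45.2% and the other F0EHC birds 55.4 to 62.6%, and at positions 32092 to 32141 replicates 1 and 2 were highest, at 4.11 and 6.28%.

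Groups were separated at the promoter of AP5S1, which encodes a subunit of the AP-5 adaptor complex of endosomal sorting. Its 4 CpGs at positions 13818 to 13869 of NT_466207 averaged 36.8, 22.6, 27.9 and 15.8% in F0EHC birds and 6.90, 3.28, 4.77, 5.30 and 10.5% in F0C birds. Every F0EHC bird lay above every F0C bird (exact permutation p = 0.00794, adjusted p = 0.0522, median 31.5 reads). The intronic locus of NT_467539, positions 10398 to 10455, was at 50.9, 26.7, 13.9 and 23.8% in F0EHC birds and at 13.7, 4.37, 12.7, 17.5 and 10.2% in F0C birds, where F0C replicate 4 was above the lowest F0EHC bird (exact permutation p = 0.0159, adjusted p = 0.0579). Its difference of 17.1 points was 9.75 without F0EHC replicate 1 (exact permutation p = 0.0536), and p was 0.0571 without any one of F0C replicates 1, 2, 3 and 5.

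The lower loci with at least 3 cytosines were on random contigs of chromosome 1. The 7 cytosines of NT_456103 at positions 2932 to 2980, which the study's annotation places at a promoter, coincided with the region described above and averaged 17.3, 27.6, 62.2 and 22.2% in F0EHC birds and 27.3, 64.6, 72.8, 61.6 and 68.1% in F0C birds (exact permutation p = 0.0794). The 4 cytosines of NT_456417 at positions 9523 to 9531 were nearly unmethylated at a median of 507 reads, with 0.605, 0.716, 1.24 and 0.789% in F0EHC birds and 6.52, 1.5, 2.72, 0.412 and 5.24% in F0C birds. There F0C replicate 4 was below all F0EHC birds and the other controls above them (exact permutation p = 0.111).

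The mixed locus was on NT_462717, a chromosome 19 random contig, positions 20391 to 20692, with 7 cytosines. The group means were alike, 9.91 ± 3.43% in F0EHC and 9.86 ± 16.1% in F0C (SD, n = 4 and 5; exact permutation p = 1), but the birds were not. At the CpG of positions 20391 and 20392, F0EHC means were 28.2 and 39.5%, against 8.47 and 15.8% in F0C. At the other 5 cytosines 8 birds stayed at or below 4.35% while F0C replicate 5 was between 37.9 and 44.9%.

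Of the loci with 2 cytosines and separated groups, those with the smallest exact permutation p were picked out after their values were seen. Loci of NT_463442 and NT_466957, both higher in F0EHC, and of NT_472186, lower, were also separated (exact permutation p = 0.0159, 0.0159 and 0.0317). Positions 6674 and 6685 of NT_457893 averaged 2.25, 2.48, 4.89 and 3.61% in F0EHC birds and 15.3, 13.3, 23.1, 20.8 and 14.6% in F0C birds, and the promoter CpG at positions 6850 and 6851 of NT_464257 averaged 2.25, 6.94, 5.45 and 3.57% in F0EHC birds and 18.7, 22.9, 17.6, 23.7 and 15.8% in F0C birds. Both had the smallest exact permutation p the design allows, 0.00794 (adjusted p = 0.0522). On NT_457893 a site further along, position 7234, which the study's annotation pairs with CDK5, a neuronal kinase, went the other way: 25.6, 26.5, 17.9 and 15.9% in F0EHC birds, against 8.00, 1.92, 2.44, 5.88 and 2.56% in F0C birds, again with no overlap.

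The 10 sites with the largest fitted change each had a group in which most or all birds were at 0%, which a ranking by log fold change favours. MOGS, which encodes the glucosidase that starts the trimming of N-linked sugars in the endoplasmic reticulum, had a promoter site at position 10899 of NT_464186. It was at 6.45, 11.1, 23.8 and 30.0% in F0EHC birds and at 0% in all 5 F0C birds, where 0 of 128 reads were methylated, which allows a level of up to 2.34%. Position 30582 of NT_463442, near QPCTL, a Golgi enzyme that forms N-terminal pyroglutamate, was at 39.4, 31.2, 42.3 and 56.5% in F0EHC birds. In F0C it was at 0% in 4 birds and at 40.9% in replicate 1, inside the F0EHC range. Position 30581, the other strand of that CpG, was at 50, 48.6, 46.7 and 47.8% in F0EHC birds. F0C replicate 1 had 27.8% there and the other F0C birds 0%, so those values did not overlap. The exon site at position 7954 of NT_466957 was at 57.6, 49.2, 35.0 and 36.4% in F0EHC birds and at 0% in 4 F0C birds, with 23.1% in F0C replicate 2. Position 7953, the other strand of the same CpG, was much lower, at 17.9, 22.9, 18.9 and 16.0% in F0EHC birds. There F0C replicate 2, at 18.75%, lay inside the F0EHC range. The 2 further upward sites, positions 28905 and 28944 of NT_464176, belonged to the locus above and were at 0% in every F0C bird (0 of 190 reads at each, up to 1.58%). On the other strand of these CpGs, positions 28906 and 28945, the F0C means were 1.25 and 1.66%.

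The 5 downward sites were at 0% in every F0EHC bird. Position 5598 of NT_464258, in an intron, was at 44.4, 11.1, 33.3, 37.5 and 40% in the F0C birds, the only one of the 5 with all controls above 0, and rested on 8 reads or more per bird (0 of 55 reads in F0EHC, up to 5.45%). Position 65076 of NT_459802, in an intron of DCTN1, the large subunit of the dynactin complex, was at 69.2, 32.3, 0, 10.7 and 40.9% in F0C birds (0 of 74 reads in F0EHC, up to 4.05%). The sites on NT_465348 in SLC39A14, a zinc and manganese transporter, and on NT_464205 near EGR3, an early growth response transcription factor, were methylated in only 2 F0C birds each. On the other strand of the SLC39A14 CpG, position 9847, F0C replicate 2 also had 2.56% and F0EHC replicate 2 had 6.67%. Position 9365 of NT_465329 was methylated in 3 F0C birds. Adjusted p over the 10 sites lay between 0.108 and 0.121 (edgeR's quasi-likelihood test). By edgeR's likelihood ratio test 8 of the 10 passed (adjusted p = 0.0104 to 0.0597), beside 48.6% of all listed sites. DESeq2's Wald test took 7 (adjusted p = 0.00739 to 0.105), beside 63.5%. The 10 were ranked by fitted change on these same counts, so a high share was favoured by the choice and is no support for them. The 95% Wilson interval of a single bird at these 10 sites had a median width of 18.0 points and a largest width of 55.7, and such intervals cover counting error only.

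The study's annotation paired 32 of the 117 contig sites with 20 symbols. Those not described in the text, CNN1, DCTN2, DMTN, GLI1, POU6F1, PPP1R9B, PSMB6 and gga-mir-6619, had overlapping groups at each of their sites. Several genes had more than one site. The 3 sites paired with Lbx3, a homeobox factor gene, on NT_464186 were all higher, at means of 16.4, 21.3 and 31.0% in F0EHC, against 2.46, 1.25 and 3.83% in F0C, and the second of these, position 31749, had groups that did not overlap. DCTN1 held, beside the site above, one at position 57196 that was at 41.2, 53.8, 30.8 and 45.8% in F0EHC birds and at 0, 2.70, 0, 5.88 and 18.2% in F0C birds; it lay inside the upward region of NT_459802 already described. EGR3 had a promoter site at position 10525 that was higher in F0EHC (10.3% against 1.22%) and an intergenic one at position 3059 that was lower (77.0% against 95.5%, no overlap).

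NR4A1, an orphan nuclear receptor gene, had one site of each direction on NT_464746, with 8.56% in F0EHC, against 0.625% in F0C, at position 21475, where F0EHC replicate 2 had 23.9% and the other F0EHC birds 2.33 to 4.44%, and 4.75% in F0EHC, against 27.7% in F0C, at position 22650. LGI3, which encodes a secreted leucine-rich protein, and KCNA7, a voltage-gated potassium channel gene, had one site each that was lower without overlap, at 7.68 and 3.38% in F0EHC, against 29.7 and 17.2% in F0C. RETSAT, the retinol saturase gene, had a promoter site at 43.3, 21.1, 63.0 and 22.6% in F0EHC birds and at 0, 0, 16.7, 0 and 26.7% in F0C birds, where F0C replicate 5 lay among the F0EHC values. None of these sites passed the adjusted quasi-likelihood test of edgeR, which took 0 sites of the table.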

How the data were processed

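RRBS libraries of sperm from 9 males (4 F0EHC, 5 F0C, each a separate bird) were analysed from 2 deposited tables. Per the study's methods and the submitters' processing notes, the authors trimmed reads with Trim Galore, mapped them with Bismark and Bowtie to galGal5 and extracted methylation calls. The authors' site table holds deposited counts of methylated and unmethylated reads, not normalized, at cytosines that reached 8 reads in each bird and passed a false discovery rate of 0.05 in edgeR. The authors' region table holds the mean percent methylation of each metilene region per library, without depth.

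Sites were fitted over all 1286 rows with edgeR 4.0.16 (quasi-likelihood, methylated and unmethylated counts with a library term) and regions over all 6428 rows with limma 3.58.1 (with a mean-variance trend), in R 4.3.3, with Benjamini-Hochberg adjustment. edgeR's likelihood ratio test and DESeq2 1.42.0 were alternatives. Levels were means of percent values, and 31 region values the table leaves blank (4 on contigs) were treated as missing. Sites within 500 bp were joined into loci and compared by exact permutation over 126 draws. Contigs and placed autosomes were compared within each bird by an exact sign-flip test. Fits were tested on simulated data. Python 3.11.15 with pandas 2.3.3, numpy 2.4.6, scipy 1.17.1 and matplotlib 3.10.9 was used.

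Named items were all loci with at least 3 cytosines, and some of the contigs with at least 4 regions and of the sites with a symbol. Also named were the 5 sites per direction with the largest fitted log fold change. Regions were ranked by difference in points, and the 8 largest per direction were named. Symbols and features of sites came from the study's annotation, by name only, and no Ensembl ID of a region was matched to a symbol. Members and lists were chosen with earlier results of these data known. Region starts were converted to count from 1 (galGal5). Site depth limits precision to the Wilson 95% intervals given, and a level of 0 allows 3 reads of the total; both cover counting error only. Region depth is unknown.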

Additional observations from a re-analysis of the deposited data

Results flagged for a closer look

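Dixon's rule was applied to 78 groups of values, from summary measures per bird and from the named loci, sites and regions. In 8 of them 1 bird lay further from its group than the 95% limit for its number of birds. Chance gives about 1 in 20, but groups with every value at 0 were counted and could not be flagged, so this is a rough guide. Some of the 8 overlap in sequence. In F0C replicate 1 this was so on NT_456103 at positions 2932 to 2980, where the locus was at 27.3% (other F0C birds 61.6 to 72.8%) and the region that contains it at 24.99% (others 58.7 to 68.5%). The same bird had 86.8% in the region at position 6818 of NT_471921 (others 48.0 to 54.8%) and 40.9% at site 30582 of NT_463442, the QPCTL site (others 0%). F0C replicate 5 had 38.7% at the locus starting at 20391 of NT_462717 (others 1.60 to 4.48%). F0C replicate 2 had 23.1% at site 7954 of NT_466957 (others 0%), and F0C replicate 3 had 12.0% in the region at position 1889 of NT_471607 (others 1.88 to 3.83%). In F0EHC, replicate 3 had 59.7% in the region at position 951 of NT_456103 (others 39.4 to 42.1%).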

How the results depend on the processing

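Contig regions stood above placed autosomes in every alternative run, at 5.09 to 5.24 points with 1 bird left out. Random contigs with the linkage group gave only 0.413 points (exact p = 0.129). Their share of regions over 60% turned to -0.518 points, while their share under 5% stayed lower, at -5.08 points. The site level was less stable. The call was lost from medians (-3.49 points), with 1 value per contig (0.154), on random contigs (-0.801), without NT_464176 (-0.137) and at a minimum of 20 reads (-1.53). Unplaced contigs, which include NT_464176, kept it at -3.46 points (exact sign-flip test, p = 0.0273). With 1 bird left out the difference was -3.09 to -1.79 points, and only some of these runs kept the call (exact p = 0.0234 to 0.0625). The depth ratio (log2) was 1.19 from means, 1.27 from means per contig, -0.046 on unplaced and 0.33 on random contigs (exact p = 0.586 and 0.00781). Median spread between birds, contigs minus placed autosomes, was -2.61 points at sites (-0.468 between 40 and 60%, -3.64 to -1.86 with 1 bird left out) and 0.446 at regions (-0.102 between 40 and 60%, 0.364 to 0.595). The percent of sites higher in F0EHC was 43.0 without NT_464176, 50 with 1 direction per locus and 54.7 to 56.4 with 1 bird left out, and that of regions 55.7 without NT_459802 and 56.0 to 57.2.

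After adjustment, contig sites past the test numbered 55 with edgeR's likelihood ratio test, 67 with DESeq2 and 0 in the other fits run, and contig regions 0 in all. Unadjusted, 53 sites became 35 at a minimum of 20 reads and 32 to 55 with 1 bird left out, 140 regions became 124 to 141, and 38 loci became 23 to 30. With a replicate block, 0 sites and 0 regions passed, and 34 and 98 did so unadjusted. The labels give no pairing of birds by replicate number. Same-numbered birds correlated between -0.041 and 0.17 at sites and between -0.057 and 0.069 at regions. Other pairs of birds were not set beside them, so these values cannot settle whether birds were paired. The locus starting at 20391 of NT_462717 changed sign, at -8.02 points when joined within 100 bp, -1.65 from pooled reads and -2.01 to 7.26 with 1 bird left out. At 20 reads, 5 named sites gave no value. The causes of these shifts were not tested. The shares of regions by level, other settings of the unadjusted site and region counts, 1 direction per locus and spread between 40 and 60% were alternatives chosen after seeing the data. Single sites with 8 to 80 reads per bird limit what can be read from 1 bird.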
